A study of Mus musculus with 6 samples.

Results

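The genes described here encode the proteins of the cytosolic ribosome. They were chosen by symbol: protein-coding genes of the GENCODE vM1 annotation named Rpl or Rps with a number, together with Rplp0, Rplp1, Rplp2 and Rpsa, with at least 100 counts summed over the 6 RNA-seq libraries. The symbols of 81 genes matched and 79 passed the count minimum, of 37991 gene identifiers in the count files. Of the 79, 32 belong to the small (40S) subunit and 47 to the large (60S) subunit. The remaining genes of the symbol rule were Rpl10l, with 0 counts in every library, and Rpl39l, with 7 and 1 counts in wild type, 5 and 14 in premalignant, and 0 and 1 in malignant cells. The rule uses symbols and summed counts.

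Pre-B cells were sorted by flow cytometry from mouse bone marrow, and polyadenylated RNA was sequenced from 2 biological replicates for each of 3 stages. All mice were C57BL/6. Wild type mice of 4 to 6 weeks were compared with premalignant mice of the same age, which carry the Eμ-Myc transgene as heterozygotes, and with Eμ-Myc mice of 10 to 20 weeks that had developed lymphoma (malignant). The transgene places Myc under the immunoglobulin heavy chain enhancer, so that it is expressed in B-lineage cells, and each malignant library comes from a tumor that arose on its own. The labels give 1 gate for all stages, B220 high with low IgM and IgD, while the study's methods give it for wild type and premalignant cells and describe the malignant cells as positive for B220 and negative for IgM and IgD. By those methods wild type and premalignant mice were female and malignant mice were of both sexes. Malignant mice thus differ from wild type and from premalignant mice in age, and may differ in sex and gate, as well as in the tumor and, against wild type, the transgene, and these cannot be told apart.

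A ribosome holds 1 copy of nearly every one of these proteins, and their genes are transcribed by RNA polymerase II while the ribosomal RNAs they bind are made by RNA polymerases I and III. The small subunit decodes the mRNA, and the large subunit joins amino acids and lets the new chain out through its exit tunnel. The mRNAs of ribosomal proteins begin with a run of pyrimidines, the 5′ terminal oligopyrimidine tract, through which mTOR signaling controls their translation, and Myc is known as an activator of ribosome production.

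RefSeq start windows (GRCm38.p6) were found for 58 of the 79 members, with 70 windows in all and none for the other 21. The lines below give 30 bases before and 20 bases from the start site for the members with the largest rises, Rps2, Rps12, Rpl14 and Rpl15, for Rps27, which rose least, and for Rpl3l, which fell. The capitals mark the run of 5 or more pyrimidines closest to the start. The run covers the start in Rpl14, Rpl15 and Rps27, and it begins 4, 8 and 9 bases after it in Rps2, Rps12 and Rpl3l. Rpl3l has a second RefSeq start, shown last, with no such run in these 50 bases.
Rps2, chr17:24720033-24720082, plus strand: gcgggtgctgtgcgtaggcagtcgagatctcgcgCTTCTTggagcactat
Rps12, chr10:23787190-23787239, minus strand: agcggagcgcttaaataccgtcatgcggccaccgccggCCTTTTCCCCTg
Rpl14, chr9:120571487-120571536, plus strand: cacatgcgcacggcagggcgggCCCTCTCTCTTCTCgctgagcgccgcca
Rpl15, chr14:18270967-18271016, minus strand: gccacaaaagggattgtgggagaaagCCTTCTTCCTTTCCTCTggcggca
Rps27, chr3:90213629-90213678, minus strand: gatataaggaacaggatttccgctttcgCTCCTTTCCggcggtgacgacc
Rpl3l, chr17:24727796-24727845, plus strand: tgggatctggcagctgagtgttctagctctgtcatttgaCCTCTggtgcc
Rpl3l, second start, chr17:24732655-24732704, plus strand: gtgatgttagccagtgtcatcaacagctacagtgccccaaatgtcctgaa

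A run of 7 or more pyrimidines that opens with C within 5 bases of the start was found in 18 of the 70 member windows (25.7%) and in 5.64% of all 32851 windows of the same length. The letters CCGGAA, the core of ETS factor sites, were present on either strand of the 300-base windows in 45.7% of member windows and in 14.9% of all windows. The E-box CACGTG, to which Myc binds with Max, was present in 11.4% of member windows and in 7.15% of all windows. AAGATGG, the core of YY1 sites, was found in 15.7% against 6.34%. These matches describe letters and not bound sites. In malignant vs. wild type cells the median log2 fold change was 1.51 for the 18 members with the pyrimidine run and 1.48 for the 40 without it. It was 1.56 for the 31 members with CCGGAA and 1.43 for the 27 without, and 1.39 for the 6 members with CACGTG and 1.53 for the 52 without. For AAGATGG it was 1.32 for the 9 members with it and 1.52 for the 49 without. Rpl3l is counted in these group sizes but was left out of the medians.

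Total counts on genes ranged from 51065861 to 53453055 in the replicate 1 libraries and from 30031100 to 34543633 in the replicate 2 libraries, so that each stage has 1 library of each depth. Myc, the gene carried by the transgene, was at 33.7 and 41.4 CPM (counts relative to the total of their library, scaled with TMM factors) in wild type, 1164 and 1155 in premalignant, and 1731 and 1577 in malignant cells. The B-lineage receptor genes Cd79a and Cd79b were present in every library, at 616 to 1479 CPM. Rag1, a recombinase of pre-B cells, was at 1944 and 1797 CPM in wild type but at 154 and 56.7 in malignant cells. Of the 11 pre-B and B-lineage markers, 10 were called lower in premalignant and 10 in malignant vs. wild type cells. Over all genes tested, 20.3% and 24.3% were called lower. The 9 myeloid markers summed to 1045 and 2324 CPM in wild type, 315 and 341 in premalignant, and 78.7 and 148 in malignant cells, with none at 0 over all libraries, and the 8 erythroid markers to 430 and 1642, 102 and 214, and 72.7 and 88.4 CPM. The 7 T and NK cell markers summed to 65.6 to 145 CPM in wild type and to 1.00 to 35.5 in the other libraries. The 6 listed plasma and mature B cell markers, of which 5 were measured, summed to 32.9 to 260 CPM and the 5 plasmacytoid dendritic cell markers to 1101 and 859 CPM in wild type, 472 and 324 in premalignant, and 191 and 364 in malignant cells. The myeloid, erythroid, T and NK and plasmacytoid dendritic markers were thus highest in wild type, and their part in the differences below was not tested. In bulk RNA, fewer cells of a type and less RNA per cell cannot be told apart.

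The ribosomal protein genes took a larger share of the counts in the Eμ-Myc libraries than in wild type. The 79 genes held 4.04% and 3.74% of all counts in the wild type libraries, 7.95% and 7.70% in the premalignant libraries, and 10.1% and 8.18% in the malignant libraries. Wild type and Eμ-Myc libraries did not overlap, and the lowest malignant share lay above the highest premalignant share. The means were 3.89% ± 0.213 (SD, n = 2) for wild type, 7.83% ± 0.173 for premalignant and 9.14% ± 1.35 for malignant cells, which is 2.01 and 2.35 times the wild type mean. The step from premalignant to malignant cells was smaller than the SD between the malignant libraries. With 2 libraries a stage, no exact two-sided permutation test of 1 value can go below p = 0.333, and none was made of the share. The Wilson 95% intervals, which cover counting error only, were narrow, from 4.03 to 4.04% in wild type replicate 1 and from 8.17 to 8.19% in malignant replicate 2.

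**Figure D1:**
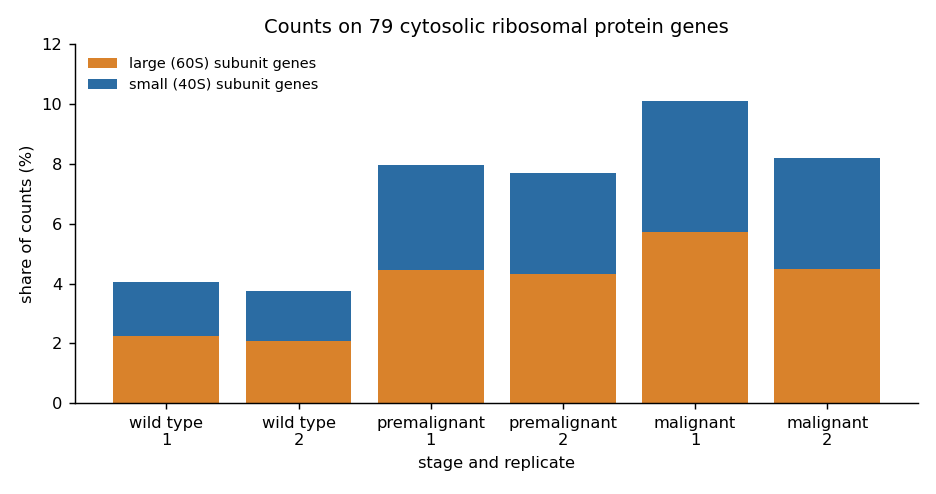
Share of all counts (%, vertical axis) on the 79 cytosolic ribosomal protein genes in each library, split into genes of the large and small subunit. The wild type bars reach 4.04 and 3.74%, the premalignant bars 7.95 and 7.70% and the malignant bars 10.1 and 8.18%.

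The split between the subunits hardly moved. Small subunit genes held 44.4% and 44.0% of the member counts in wild type, 43.8% and 43.7% in premalignant, and 43.5% and 45.4% in malignant cells. The highest-ranking member in every library was Rpl4, a protein of the large subunit that lines the exit tunnel. It was the gene with the rank 23 and 30 by counts in the wild type libraries, 8 in both premalignant libraries, and 8 and 9 in the malignant libraries. Of the 100 genes with the most counts, 10 and 7 were members in wild type, 38 and 35 in premalignant, and 46 and 32 in malignant cells.

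**Figure D2:**
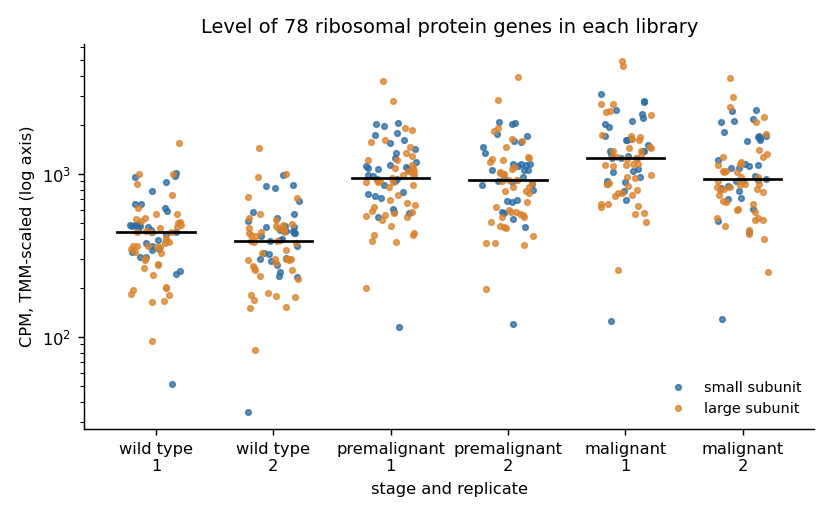
CPM scaled with TMM factors (vertical log axis) of 78 members in each library, with Rpl3l left out for its low level. Each point is a gene, colored by subunit, and the black line is the median, which lies higher in the 4 Eμ-Myc libraries than in both wild type libraries.

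Premalignant vs. wild type cells were compared to see what Eμ-Myc changes before lymphoma. Of the 79 members, 77 were called higher in premalignant cells, 1 was called lower and 1 was not called. A call required an adjusted p of at most 0.1 in edgeR's quasi-likelihood test and a log2 fold change of 0.5 or more in size. Over all 16683 genes tested, 19% were called higher and 20.3% lower. The median log2 fold change of the members was 1.20 (a 2.29-fold difference, quartiles 1.03 and 1.35), and over all genes it was -0.08. The median was 1.17 for the 32 small subunit genes and 1.22 for the 47 large subunit genes. It was 1.16 between the replicate 1 libraries and 1.26 between the replicate 2 libraries.

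The 5 largest rises before malignancy were those of Rps2, Rpl14, Rps12, Rpl10a and Rpl3. Rps2 (ENSMUSG00000044533, NCBIM37 chr17:24855061-24858874), a small subunit protein close to the mRNA entry, was at 430 and 392 CPM in wild type, 1540 and 1599 in premalignant, and 2018 and 1692 in malignant cells. In premalignant vs. wild type cells the log2 fold change was 1.93 ± 0.17 (SE; adjusted p = 0.00193). Rpl14, a large subunit protein, was at 345 and 302 CPM in wild type and at 1139 and 1098 in premalignant cells, a log2 fold change of 1.79 ± 0.24 (adjusted p = 0.00473). Rps12, a protein of the small subunit beak, rose from 485 and 446 to 1420 and 1470 CPM. Rpl10a and Rpl3 rose by log2 fold changes of 1.60 and 1.58. Both premalignant libraries lay above both wild type libraries for 78 of the 79 members, so this does not set the 5 genes apart. It was not counted over all genes.

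The member that was not called was Rps27, a small subunit protein with a zinc finger. It was at 487 and 432 CPM in wild type and at 605 and 586 CPM in premalignant cells, a log2 fold change of 0.37 ± 0.14 (adjusted p = 0.0884), which is below the fold needed for a call. The next smallest rises were those of Rpl35a (0.81), Rps9 (0.83), Rpl7 (0.88) and Rpl30 (0.89). Rpl35a is one of the genes mutated in Diamond-Blackfan anaemia, and Rps9 is a small subunit protein that binds early to ribosomal RNA. The call of Rps9 was lost on leaving out wild type replicate 2 (adjusted p = 0.105), premalignant replicate 1 (0.133) or premalignant replicate 2 (0.142), and that of Rpl7 on leaving out any of the 4 libraries compared (0.136 to 0.252). The call of Rpl35a was lost without either premalignant library (0.149 and 0.104).

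Malignant vs. wild type cells were compared for the whole course from normal to lymphoma cells. Here 78 members were called higher and 1 lower, against 24.9% and 24.3% of all genes tested. The median log2 fold change of the members was 1.48 (a 2.78-fold difference, quartiles 1.33 and 1.66), against -0.02 over all genes. It was 1.58 between the replicate 1 libraries and 1.37 between the replicate 2 libraries, and 78 members were higher in both pairs. The direction within these pairs was not counted over all genes. The premalignant and malignant comparisons share the wild type libraries, so they are not separate evidence.

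The largest rises were those of Rps12, Rps2, Rpl14, Rpl15 and Rpl32. Rps12 reached 1931 and 2415 CPM in the malignant libraries, a log2 fold change over wild type of 2.22 ± 0.18 (adjusted p = 0.000735). Rps2 followed with 2.17 ± 0.17 and Rpl14 with 2.03 ± 0.24. Rpl15, a large subunit protein, was at 180 and 175 CPM in wild type, 424 and 473 in premalignant, and 802 and 584 in malignant cells, with a log2 fold change of 1.97 ± 0.19 over wild type. Rpl32 was at 615 and 565, 1572 and 1600, and 2389 and 2218 CPM, with 1.96 ± 0.15. Apart from Rpl3l, the lowest values were 0.87 ± 0.14 for Rps27, 1.09 ± 0.18 for Rps9, 1.14 for Rpl10 and 1.17 for Rpl21, and all 4 were called higher. Rps12, Rpl15 and Rpl32 lie on chromosomes 10, 14 and 6. The other genes there exceeded the premalignant mean by medians of 0.36, 0.32 and 0.36 in malignant replicate 2. In malignant replicate 1 these medians were -0.01, 0.53 and -0.01. On chromosomes 17 and 9, with Rps2 and Rpl14, they were -0.14 and -0.11 in replicate 2. The part of the chromosome in this ranking was not tested.

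**Figure D3:**
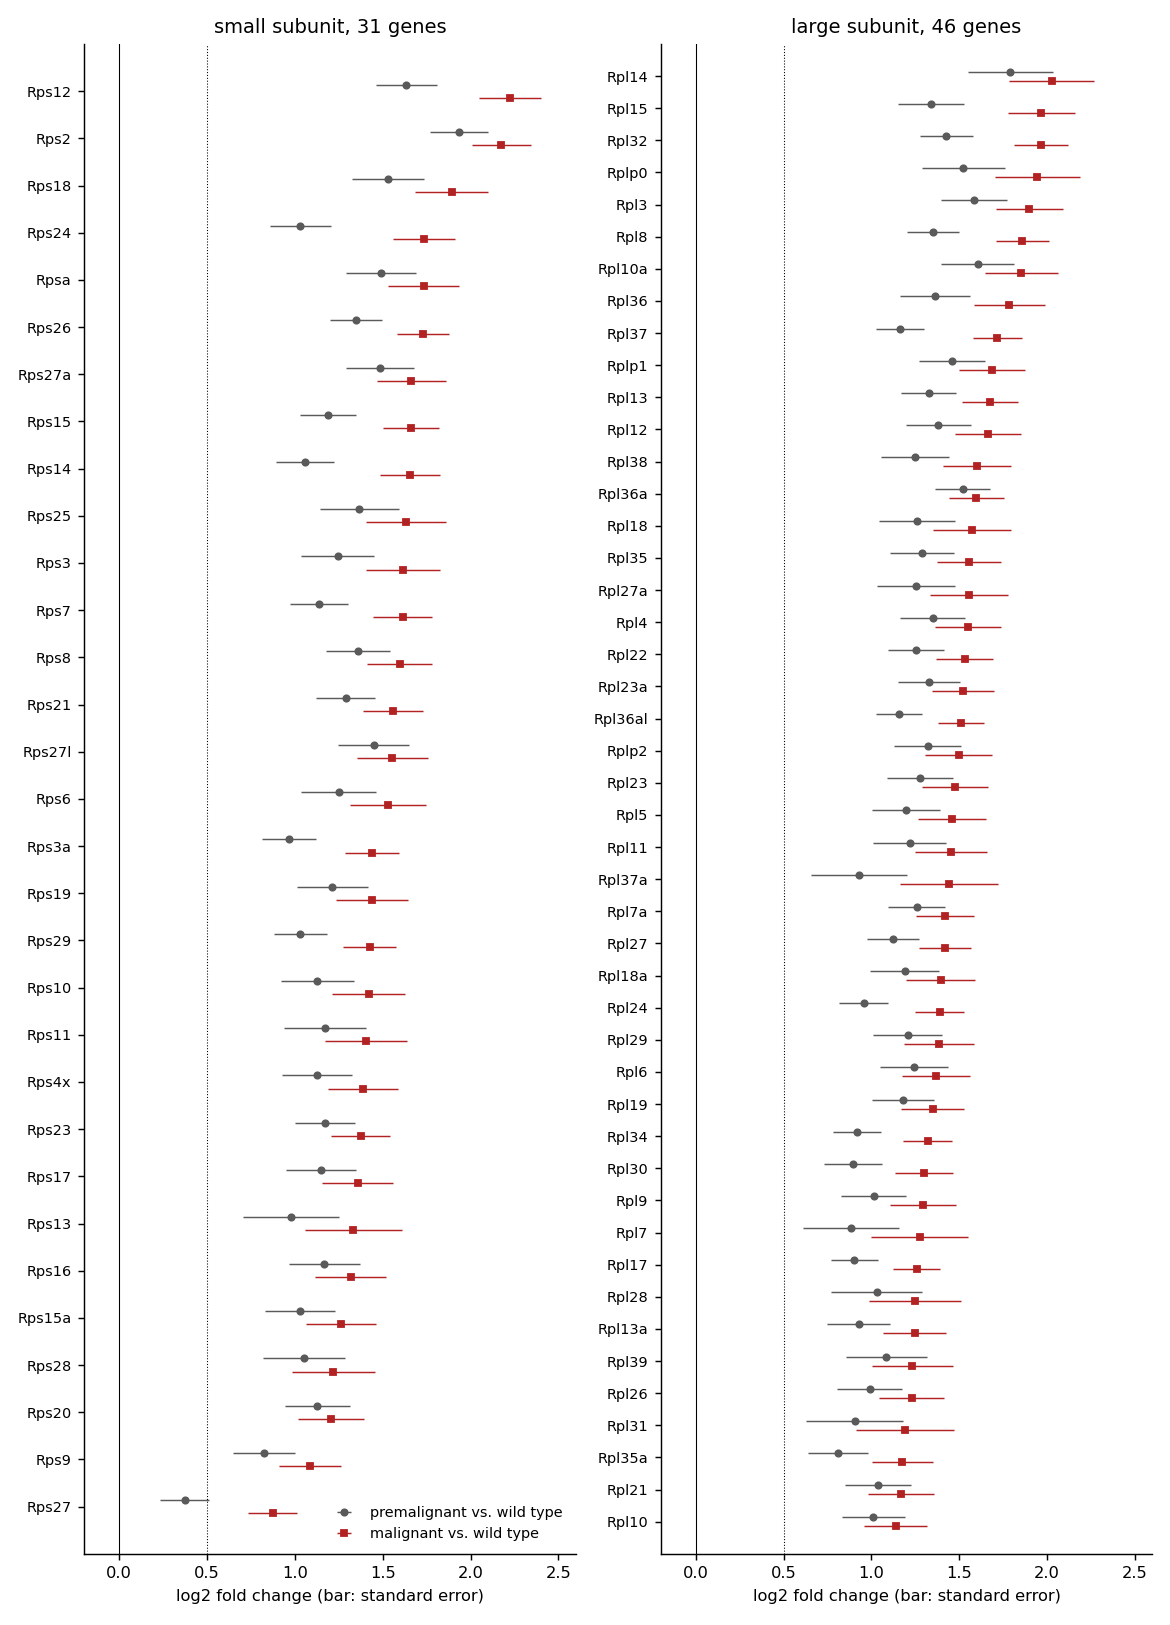
Log2 fold change against wild type (horizontal axis, bars are standard errors) of 77 members, small subunit genes left and large subunit genes right, sorted by the malignant value. Rpl3l, called lower at both stages (-4.70 and -5.25), is left out. Values lie between 0.37 and 1.93 in premalignant cells and between 0.87 and 2.22 in malignant cells, and the dotted line marks the 0.5 needed for a call.

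Rpl3l was the only member called lower. It encodes a paralogue of Rpl3 that is known from heart and skeletal muscle. It had 235 and 188 counts in the wild type libraries, 8 and 7 in the premalignant libraries, and 5 and 4 in the malignant libraries. In CPM these were 4.12 and 5.32, 0.152 and 0.211, and 0.105 and 0.143. The log2 fold change was -4.70 ± 0.45 in premalignant vs. wild type cells (adjusted p = 0.00221) and -5.25 ± 0.47 in malignant vs. wild type cells (adjusted p = 0.000909). Among the counts of the Rpl3 and Rpl3l genes, Rpl3l made up 0.724% and 1.01% in wild type, 0.00948% and 0.0128% in premalignant, and 0.00453% and 0.00822% in malignant cells. Of the 50-base windows of its transcript, 98.7% occur once in the genome.

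The paralogue pairs did not all move together. Rps27l, a paralogue of Rps27 that p53 is known to induce, was at 51.2 and 34.8 CPM in wild type, 115 and 120 in premalignant, and 125 and 128 in malignant cells. The log2 fold change was 1.45 ± 0.20 in premalignant vs. wild type cells, beside 0.37 ± 0.14 for Rps27. Rps27l thus made up 9.50% and 7.44% of the counts of the pair in wild type, 15.9% and 17.0% in premalignant, and 12.6% and 13.5% in malignant cells. Of the 50-base windows of the Rps27 transcript, only 1 of 296 occurs once in the genome, against 326 of 450 for Rps27l. The counts of Rps27 and these shares are therefore uncertain. The coding sequences of the pair, shown here because the counts of these genes diverge, have 255 bases each and are identical at 194 of them (76.1%). Capitals mark the 61 positions at which they differ, and no window of 50 coding bases is the same in both.
Rps27, NCBIM37 chr3:90016593-90017573, minus strand: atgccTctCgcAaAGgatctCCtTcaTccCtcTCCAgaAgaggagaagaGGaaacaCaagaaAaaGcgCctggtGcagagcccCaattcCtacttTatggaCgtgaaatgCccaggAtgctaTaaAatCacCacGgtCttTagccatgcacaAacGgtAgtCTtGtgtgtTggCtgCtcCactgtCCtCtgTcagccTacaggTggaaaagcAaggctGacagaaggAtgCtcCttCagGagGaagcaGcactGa
Rps27l, NCBIM37 chr9:66793893-66797323, plus strand: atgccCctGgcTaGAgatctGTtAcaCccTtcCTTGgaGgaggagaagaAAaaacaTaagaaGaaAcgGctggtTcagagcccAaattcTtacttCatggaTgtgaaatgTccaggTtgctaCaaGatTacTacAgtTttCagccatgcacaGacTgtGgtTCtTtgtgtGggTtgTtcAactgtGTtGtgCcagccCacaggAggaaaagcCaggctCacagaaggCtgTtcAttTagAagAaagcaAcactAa

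Rpl36al, a copy on chromosome 12 of the X-linked Rpl36a, was at 94.9 and 83.3 CPM in wild type, 200 and 198 in premalignant, and 256 and 251 in malignant cells. It held 32.0% and 31.7% of the counts of that pair in wild type, 26.8% and 26.5% in premalignant, and 28.9% and 32.5% in malignant cells. The coding sequences of this pair are identical at 87.9% of 321 bases. Rpl22l1, a paralogue of Rpl22 that lies outside the symbol rule, was at 73.0 and 55.6 CPM in wild type and at 148 to 177 CPM in the other libraries, and its share of the pair lay between 18.7% and 23.3% in all 6 libraries. Rpl7l1 held 8.71% to 10.1% of the counts shared with Rpl7 in 5 libraries and 4.12% in malignant replicate 1.

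The 4 stalk genes encode the arm that recruits the elongation factors, and all 4 were called higher in premalignant and in malignant vs. wild type cells. Rplp0, the base of the stalk, was at 1001 and 962 CPM in wild type, 2785 and 2856 in premalignant, and 4596 and 2959 in malignant cells, with a log2 fold change of 1.94 ± 0.24 in malignant vs. wild type cells. Rplp1 was at 503 and 443, 1343 and 1257, and 1727 and 1317 CPM, and Rplp2 at 359 and 339, 908 and 834, and 1136 and 835 CPM. Rpsa, the laminin receptor precursor that is part of the small subunit, was at 785 and 680, 2039 and 2079, and 2803 and 2072 CPM.

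All 4 listed proteins around the peptidyl transferase center, where peptide bonds are made, were called higher than in wild type at both stages. Rpl4 was at 1551 and 1441 CPM in wild type, 3698 and 3918 in premalignant, and 4890 and 3871 in malignant cells. Rpl8 was at 741 and 708, 1864 and 1832, and 2699 and 2561 CPM. The 9 listed genes of the exit tunnel were all called higher at both stages, with median log2 fold changes of 1.18 and 1.35. The 14 genes of the small subunit head and beak were all called higher at both stages (medians 1.20 and 1.53). Of the 17 genes of the body and platform, 16 were called higher in premalignant and 17 in malignant cells (medians 1.14 and 1.53), the exception being Rps27.

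The list for the 5S particle and p53 holds proteins that can bind and inhibit Mdm2, the ubiquitin ligase of p53. Of its 7 genes, 6 were called higher in premalignant and 7 in malignant vs. wild type cells. Rpl5, which carries the 5S ribosomal RNA with Rpl11, was at 466 and 437 CPM in wild type, 999 and 1071 in premalignant, and 1437 and 1047 in malignant cells. Rpl11 was at 392 and 379, 888 and 905, and 1254 and 857 CPM. All 9 genes listed for Diamond-Blackfan anaemia, an inherited failure of red cell production, were called higher at both stages (medians 1.15 and 1.45). The most often mutated of them, Rps19, was at 437 and 397, 981 and 955, and 1333 and 931 CPM.

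Genes that work with the ribosomal proteins are given for comparison. The 5 measured ribosomal proteins outside the symbol rule were all called higher at both stages, and the smallest log2 fold changes among them were those of Fau in premalignant (0.51 ± 0.18) and malignant cells (0.59 ± 0.18). Fau is made as a fusion to a ubiquitin-like protein. Of 20 other mRNAs with a pyrimidine tract, 17 and 18 were called higher (medians 1.10 and 1.33), among them Eef1a1 and Eef2, the main elongation factors. Tpt1 of that list was at 1459 and 1381 CPM in wild type and 1800 and 1872 in premalignant cells (log2 fold change 0.37 ± 0.22, not called). All 30 ribosome assembly factors were called higher at both stages, with medians of 1.98 and 2.32. Npm1, a nucleolar chaperone, went from 517 and 457 CPM in wild type to 2571 and 2699 in premalignant cells. Of 76 mitochondrial ribosomal protein genes, 69 and 70 were called higher (medians 0.90 and 1.04). Of the 10 cycling cell markers, 7 were called higher in premalignant and 4 in malignant vs. wild type cells, with medians of 0.76 and 0.31. The differences between these lists were not tested.

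**Figure D4:**
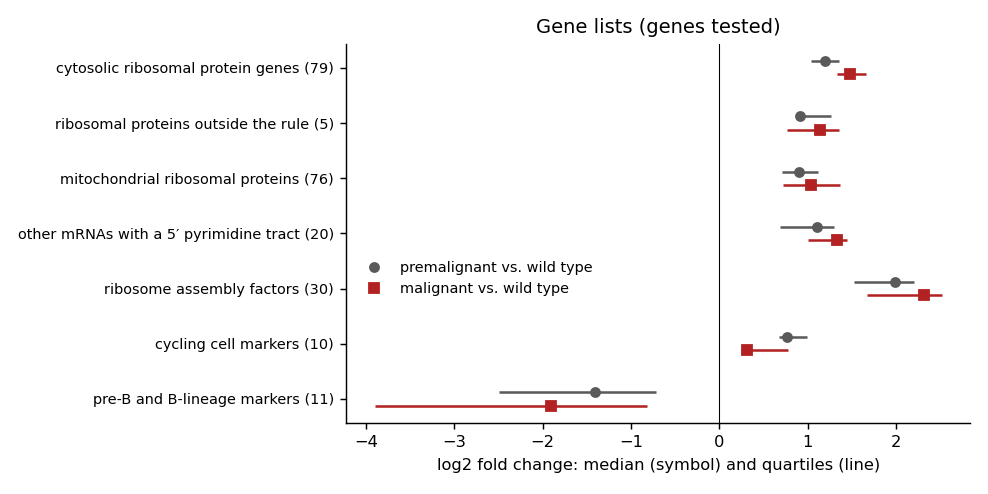
Median (symbol) and quartiles (line) of the log2 fold change against wild type for the members and other listed genes, with the number of genes tested in parentheses. The members have medians of 1.20 and 1.48, the assembly factors 1.98 and 2.32, and the pre-B and B-lineage markers -1.41 and -1.91.

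Malignant vs. premalignant cells were compared for the step to lymphoma. Of the 79 members, 2 were called higher and 0 lower, against 3.73% and 2.45% of all genes. At an unadjusted p under 0.05 edgeR gave 18 members higher and 0 lower, and 19.9% of all genes passed that threshold in either direction. The median log2 fold change was 0.27, against 0.04 over all genes. A value above 0 was found for 78 members, and for 76 with upper quartile or total count scaling. The 2 called members were Rps24, with 0.71 ± 0.17 (adjusted p = 0.0977), and Rpl37, with 0.55 ± 0.14 (adjusted p = 0.0999). Rps24 was at 1189 and 1155 CPM in premalignant and 2119 and 1708 in malignant cells, and Rpl37 at 424 and 414 and at 576 and 653 CPM. The next highest were Rpl15 (0.63), Rps14 (0.60) and Rps12 (0.59), and apart from Rpl3l (-0.55 ± 0.48) the lowest were Rps20 (0.08), Rpl36a (0.08), Rps27l (0.11) and Rpl6 (0.12), none of them called.

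This comparison depended on which malignant library was used. Without malignant replicate 1 the median log2 fold change of the members was 0.02, and without malignant replicate 2 it was 0.41. Between the replicate 1 libraries 78 members were higher in the malignant one, with a median of 0.43, and between the replicate 2 libraries 49 were, with a median of 0.05. The direction within each pair was not counted over all genes. Both malignant libraries lay above both premalignant libraries for 40 members, against 25.9% of all genes tested. No member was called with upper quartile or total count scaling or in the fit of the 2 stages alone, and DESeq2 called 6. The share of all genes called in those fits is not given here.

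The members differed between the malignant libraries far more than between libraries of the other stages. The SD over 78 members of the log2 difference between replicates 2 and 1 was 0.11 for wild type, 0.08 for premalignant and 0.27 for malignant cells. In malignant cells it ran from -0.86 for Rpl37a to 0.35 for Rps14. Rpl37a was at 948 and 521 CPM, and Rps14 at 1252 and 1591 CPM. In premalignant cells the same genes were at 523 and 506 CPM and at 928 and 950 CPM.

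These differences followed in part the chromosome on which a gene lies. On every chromosome that carries members, the median difference of the members also lay below that of the other genes. It was -0.01 against 0.38 on chromosome 3 and -0.51 against -0.04 on chromosome 7. On chromosomes 3, 6, 10, 12, 15, 16 and 18 the median of the other genes was higher in malignant replicate 2 than in replicate 1, by 0.37 to 0.41 on the log2 scale. On the other chromosomes that carry members, except chromosome 1, it lay between -0.15 and -0.04, and on chromosome 1 it was -0.55. The 18 members on the 7 chromosomes had a median difference of 0.04 (range -0.40 to 0.35), the 57 on the 11 chromosomes between had -0.45 (-0.80 to 0.04), and the 3 on chromosome 1, Rpl7, Rpl31 and Rpl37a, had -0.86 to -0.79. Over the 78 members Pearson's r with the median of the other genes of their chromosome was 0.83 (Spearman's rho 0.45) in malignant, 0.30 in premalignant and 0.21 in wild type cells. These are descriptions across genes that share libraries. In the premalignant libraries the chromosome medians spread with an SD of 0.01, and in the malignant libraries with an SD of 0.28.

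**Figure D5:**
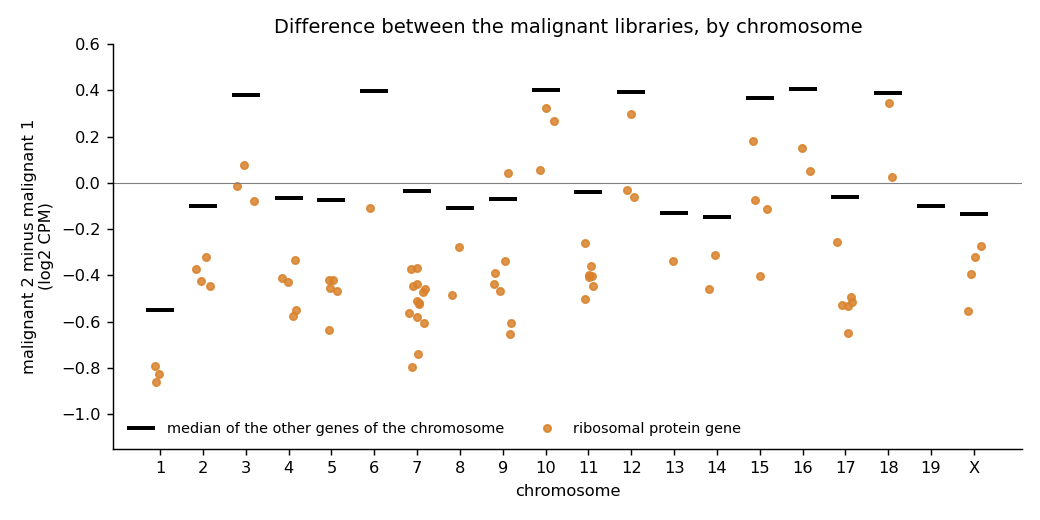
Difference between malignant replicates 2 and 1 (log2 CPM, vertical axis) by chromosome, for each member (points) and for the median of the other genes (black bars). The members of chromosome 1 are among the lowest, at -0.86 to -0.79, and those of chromosomes 10, 16 and 18 are all above 0.

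The chromosome also separated the members in malignant vs. premalignant cells. Both malignant libraries lay above both premalignant libraries for 18 of the 18 members on the 7 chromosomes, for 22 of the 57 members on the 11 chromosomes and for 0 of the 3 on chromosome 1. These counts were not made for the other genes of the same chromosomes, so whether they are particular to the members was not tested. On the 7 chromosomes the other genes also exceeded the premalignant mean in malignant replicate 2, by medians of 0.34 to 0.40. Malignant replicate 2 exceeded the premalignant mean by a median of 0.46 for the 18 members and of -0.01 for the 57. For malignant replicate 1 the same medians were 0.42 and 0.45, and 0.73 for the 3 members on chromosome 1. The other genes of chromosome 14, where Rps24 and Rpl15 lie, were higher than in premalignant cells by a median of 0.53 in malignant replicate 1 and 0.32 in replicate 2. On chromosome 15, where Rpl37 lies, these values were 0.02 and 0.38. DNA copy number was not tested.

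Per length of transcript, the levels of the members differed widely although a ribosome holds nearly all of the proteins in equal numbers. In RPKM, unscaled CPM divided by the length of 1 coding transcript in kilobases (mean of the 3 stage means), the highest levels were those of Rpl32 (2780), Rps12 (2528), Rpl4 (2200), Rplp1 (2146) and Rps9 (2052). The lowest were those of Rpl3l (1.36), Rps27l (186), Rps20 (296), Rpl36al (333) and Rpl35 (420). Over the union of all annotated exons of a gene, Rps9 was at 613 RPKM and Rpl8 took its place among the highest with 1941, and the lowest apart from Rpl3l were Rpl24 (87.9), Rps27l (114), Rps15a (126) and Rpl36al (129). The transcript used for Rps20 has 3706 bases, 360 of them coding, and is the longest among the members, whose median is 710. Before division by length, Rps20 was at 649 and 580 CPM in wild type, above the member medians of 437 and 388. The order thus depends on the length used.

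Copies of these genes in the genome limit how well their reads can be placed. Of the 50-base windows of the members' transcripts, the length of the reads, a median of 30.6% occurred once in the genome. Under 10% were unique for 12 members and over 90% for 4, among them Rpl3l and Rpl8. Rps27 had 1 unique window of 296 and Rps12 had 9 of 468, so their values are uncertain. Genes named as pseudogenes of the members (162 in the annotation) held 0.736% to 1.07% as many counts as the members in the 6 libraries. The 12 members under 10% had median log2 fold changes of 1.25 and 1.47 in premalignant and malignant vs. wild type cells, and the 23 members over 50%, with Rpl3l left out, had 1.24 and 1.55. Rpl8, with 90.8% unique windows, was called higher in both comparisons, with a log2 fold change of 1.86 ± 0.15 in malignant vs. wild type cells. Across the 78 members other than Rpl3l, Spearman's rho between the percentage of unique windows and the log2 fold change was 0.01 and 0.08, and between that percentage and RPKM per transcript it was -0.02.

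Other features of the genes varied little with the change. A total of 30 members hold 58 annotated snoRNA genes on the same strand within their bounds, and these members had median log2 fold changes of 1.24 and 1.47, against 1.18 and 1.52 for the other 48 without Rpl3l. Spearman's rho of the malignant vs. wild type log2 fold change was 0.08 with transcript length and -0.05 with the level in wild type. In 8 members over 10% of the exonic bases overlap another gene, and the library kit as described does not mark strand, so reads there cannot be told apart.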

How the data were processed

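The authors prepared libraries with the TruSeq kit from polyadenylated RNA, sequenced 50-base single-end reads, aligned them with TopHat and counted them per gene with HTSeq. The submitters' processing notes name CASAVA 1.8.2, Bowtie, HTSeq, DESeq and mm9. The HTSeq options are not given in the sources used here. The deposited files hold raw counts per Ensembl identifier for each library, and 1 wild type column is headed "untreated". The deposited tables of the authors' own DESeq comparisons were not used.

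Stages and replicate numbers came from the labels. Symbols, exons and the genome were those of GENCODE vM1 (NCBIM37, mm9), which gave annotation for 37205 identifiers. Counts were fitted in edgeR 4.0.16 (R 4.3.3) with TMM factors, edgeR's default low-count filter and quasi-likelihood tests, with all 6 libraries in 1 fit, and p-values were adjusted by Benjamini-Hochberg over 16683 genes. The SE was taken from the log2 fold change and F. SEs and p-values rest on the spread between the 2 libraries of a stage, estimated over all stages together. The scatter of the malignant libraries thus also enters the SEs and p-values of premalignant vs. wild type cells. DESeq2 1.42.0, other scalings, other filters, a replicate block and leaving out libraries were alternatives. The fits were tested on simulated data. Uniqueness was counted over 50-base windows on both strands. Chromosome medians used genes with a mean of at least 5 CPM and log2(CPM + 0.5). Start windows are RefSeq's.

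The members and lists were chosen with earlier results of these data known. The values of 1 member are not reported here. Named members are Rplp0, Rplp1, Rplp2 and Rpsa, the 5 highest and 5 lowest log2 fold changes per comparison, the paralogues, the 5 highest and lowest RPKM, and up to 4 per list by CPM. Rpl8, Rpl37a, Rps19, Rpl5 and Rpl11 were also named where a feature singled them out.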

Additional observations from a re-analysis of the deposited data

How the results depend on the processing

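The members called higher numbered 63 to 78 in premalignant and 77 or 78 in malignant vs. wild type cells under every alternative run, and leaving out 1 library gave 63 to 77 and 77 to 78. With at least 10 counts in every library Rpl3l was not tested, so 0 members were called lower in both comparisons. The share of all genes called under each alternative is not given here. With upper quartile and total count scaling the median log2 fold change of the members was 1.11 and 0.99 in premalignant and 1.31 and 1.18 in malignant vs. wild type cells. Total count scaling moved the median of all genes by -0.21 and -0.30 in these comparisons, and the members stayed 1.28 and 1.49 above it. It also left 33.7% and 35.5% of all calls higher, against 48.3% and 50.6% in the fits reported. Leaving out 1 library gave medians of 1.17 to 1.27 and of 1.29 to 1.69.

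In malignant vs. premalignant cells the 2 calls became 1 with DESeq2's size factors or without immunoglobulin and mitochondrial genes. They became 0 with upper quartile or total count scaling, with factors from the genes that are no members (added after the data were seen), in the fit of the 2 stages alone and at an FDR of 0.05. They became 6 with DESeq2 and 7 with no filter, and leaving out 1 library gave 0 to 20, the 20 without malignant replicate 2. Upper quartile scaling left 49.7% of all calls higher there, against 60.4%. The cause was not tested. The replicate numbers share only a number in the labels. With a replicate block 77, 78 and 0 members were called higher in the 3 comparisons, and deviations from the stage means correlated across 16683 genes at 0.38, 0.02 and 0.09.

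The share of counts came to 4.53, 9.37 and 10.9% in the 3 stages when the 100 other genes of highest level were left out of the total. For the premalignant mean it was 8.12% without immunoglobulin and mitochondrial genes and 8.15% with ribosomal proteins outside the rule. The 4 members with at least 90% unique windows held 0.247, 0.530 and 0.654%, which is 2.15 and 2.65 times wild type.

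A library of 30031100 counts puts 3 counts at 0.0999 CPM, so depth limits only Rpl3l, Rpl10l and Rpl39l here. With 2 libraries a stage, the spread is poorly known, and that of the malignant stage was the largest for the members.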
